A study of Mus musculus with 2 samples.

Results

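The Hedgehog and Gli genes described here are 7 mouse genes, Shh, Ptch1, Smo, Sufu, Gli1, Gli2 and Gli3, chosen by name. Around them lay 23 of the 6629 p300 peaks called in the dorsal cerebral wall at embryonic day 14.5. A peak was assigned to a gene where its midpoint fell inside the gene body or within 500 kb of its transcription start site on mm9, and no peak was assigned to more than 1 of the 7 genes. That space is called the window of a gene. For a gene with several transcripts in GENCODE vM1, the start of the one with the longest coding sequence was used. The 7 genes stand among 22367 protein-coding genes of that annotation, and every test was run over all of them.

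The study asked where enhancers lie in the developing neocortex. The tissue came from Swiss Webster mouse embryos at E14.5 and was the dorsal cerebral wall, freed of the cortical hem and hippocampus on the medial side and of the choroid plexus. The labels name no mutation or treatment, and the number of embryos pooled is not given in the sources used here. Chromatin was immunoprecipitated with an antibody against p300, a histone acetyltransferase and co-activator found at active enhancers, and chromatin of the same tissue served as input. Each was sequenced as a single library without replicates. No value below therefore has an error over samples, no test compares samples, and each interval covers counting error only. The wall holds progenitors and neurons together, and a peak in a small share of the cells cannot be told apart from a weak peak in all of them.

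Hedgehog signalling runs through the primary cilium. Without ligand, the receptor Patched1 keeps the transducer Smoothened inactive. The Gli proteins are then held by Sufu, and chiefly Gli3 is processed to a repressor. The ligand Sonic hedgehog binds Patched1, Smoothened is released, and full-length Gli proteins activate target genes, among them Gli1 and Ptch1. In the telencephalon Shh is made ventrally and supports ventral fates, whereas Gli3, chiefly as a repressor, is needed for dorsal development. These statements are background and were not measured here.

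The peak list covers distal sequence only. The authors removed peaks that overlap an exon or lie up to 2.5 kb from a start site of transcription, so p300 at the promoters of the 7 genes is not visible in it. It gives a start and an end for each peak and no score or read count, so the reads behind a single peak are unknown, and a gene with 0 peaks had none called, which is not the same as no p300. The tissue was checked by the peaks near marker genes. Of 12 dorsal telencephalic genes, 9, such as Emx1 and Neurog2, had 32 peaks inside them or within 50 kb of their start site, and Pax6, Eomes and Neurod1 had none there. Only 2 of 11 ventral genes (Dlx, Gsx2, Nkx2-1 and the like) and 2 of 10 blood, vessel and microglial genes had such peaks, 3 for each list.

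Of the 23 peaks, 10 lay in introns of 4 of the 7 genes, and the middle 200 bases of 6 of them are printed here to show sequence inside each of the 4 genes. The 6 were picked after their matches had been seen. They were taken from NCBIM37, the mm9 assembly. Peaks carry their number in the deposited list. Capitals mark matches on either strand to the E-boxes CAGATG and CAGCTG, which proneural and other bHLH factors bind, to the homeodomain core TAATTA, and to the GLI consensus GACCACCCA with at most 1 mismatch. CAGATG reads CATCTG on the opposite strand, and CAGCTG and TAATTA read the same on both. A match is a run of letters and not evidence of binding.
Gli2 intron 2, peak 230, chr1:120809347-120809546, plus strand: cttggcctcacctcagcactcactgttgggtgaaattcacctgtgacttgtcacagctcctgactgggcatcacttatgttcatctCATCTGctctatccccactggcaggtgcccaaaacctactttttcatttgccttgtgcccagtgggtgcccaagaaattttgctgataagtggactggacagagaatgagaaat
Gli2 intron 1, peak 233, chr1:120930413-120930612, plus strand: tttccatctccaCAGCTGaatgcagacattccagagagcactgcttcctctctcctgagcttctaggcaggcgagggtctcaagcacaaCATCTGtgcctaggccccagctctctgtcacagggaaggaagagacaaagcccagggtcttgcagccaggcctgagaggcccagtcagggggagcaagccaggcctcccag
Gli3 intron 2, peak 1490, chr13:15635648-15635847, plus strand: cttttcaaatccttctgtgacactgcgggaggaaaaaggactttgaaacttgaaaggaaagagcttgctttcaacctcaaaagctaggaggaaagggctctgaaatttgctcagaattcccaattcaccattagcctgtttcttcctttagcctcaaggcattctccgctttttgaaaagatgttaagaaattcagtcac
Gli3 intron 3, peak 1491, chr13:15642067-15642266, plus strand: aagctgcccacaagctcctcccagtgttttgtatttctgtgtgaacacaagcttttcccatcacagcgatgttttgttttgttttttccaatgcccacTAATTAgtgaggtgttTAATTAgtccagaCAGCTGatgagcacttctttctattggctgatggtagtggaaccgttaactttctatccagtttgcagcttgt
Ptch1 intron 2, peak 1685, chr13:63655985-63656184, plus strand: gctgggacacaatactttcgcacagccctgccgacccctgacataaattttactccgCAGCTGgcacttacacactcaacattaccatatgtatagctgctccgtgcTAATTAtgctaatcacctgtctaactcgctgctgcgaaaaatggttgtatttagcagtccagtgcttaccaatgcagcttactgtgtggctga
Sufu intron 2, peak 3128, chr19:46497146-46497345, plus strand: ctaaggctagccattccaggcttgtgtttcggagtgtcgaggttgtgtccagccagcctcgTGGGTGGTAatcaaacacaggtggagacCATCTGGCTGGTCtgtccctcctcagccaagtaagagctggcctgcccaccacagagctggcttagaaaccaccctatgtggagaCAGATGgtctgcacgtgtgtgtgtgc

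In these 6 stretches both Gli2 peaks hold CATCTG close to the midpoint, starting at -14 bases from it in peak 230 and at -11 bases in peak 233, which also holds CAGCTG. Peak 1490 of Gli3 has no marked match in its middle. Its neighbour 1491 has 2 copies of TAATTA and 1 of CAGCTG within 50 bases. Peak 1685 of Ptch1 has 1 copy of each of these. The Sufu peak has 2 GLI matches on the minus strand and an E-box on each side of its midpoint. The GLI match nearer the midpoint overlaps the E-box before it by 2 bases, so the run of capitals there is both. Of the 4 intronic peaks not printed, 232 of Gli2, 1492 of Gli3 and 1684 of Ptch1 hold CATCTG in their middle 200 bases, and 231 of Gli2 holds none of the marked matches there.

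The ligand gene Shh (ENSMUSG00000002633, chr5:28783355-28793641, minus strand) had 1 peak in its window. Peak 4683 (chr5:28687227-28688062, 836 bp) lay 106.0 kb downstream of the Shh start site, inside Rbm33, whose own start site was nearer at 43.9 kb. After it no peak was called for 2354 kb, a stretch that holds the Shh start site. Of all protein-coding genes, 26.7% sit in a peak-free stretch at least as long, against a median of 1177 kb. Lmbr1, whose intron holds the known limb enhancer of Shh, lies 762.7 to 911.3 kb from the Shh start site and outside its window, and had 0 peaks inside. Lmbr1 was named after its value had been seen.

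Ptch1 (ENSMUSG00000021466, chr13:63610261-63674474, minus strand) encodes the receptor and had 5 peaks. Its nearest peak was the closest to a start site among the 7 genes, at 10.7 kb, and 2.61% of protein-coding genes had a nearer one. Peaks 1685 (chr13:63655446-63656725, 1280 bp) and 1684 (chr13:63653533-63654553, 1021 bp) lay 10.7 and 12.8 kb downstream of the start site, both in intron 2 of 22, with midpoints 2.04 kb apart. The other 3 peaks were far off. Peak 1683 (chr13:63347074-63347716) lay 319.4 kb downstream inside 2010111I01Rik, and peaks 1686 (chr13:64018537-64019032) and 1687 (chr13:64121906-64122683) lay 352.0 and 455.5 kb upstream. Each of these had the start site of another gene nearer than that of Ptch1, namely Fancc, 0610007P08Rik and Hsd17b3. Their widths of 496 to 778 bp were all below the median of 1017 bp over all peaks, while both intronic peaks were above it.

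Smo (ENSMUSG00000001761, chr6:29685694-29711365, plus strand) encodes the transducer and had 1 peak, far from it. Peak 5194 (chr6:29311895-29313750, 1856 bp) lay 372.9 kb upstream inside Calu, whose start site was 14.7 kb away. It was wider than 93.9% of all peaks. For 61.0% of protein-coding genes the nearest peak was closer than for Smo, and the peak-free stretch around its start site was 1792 kb.

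Sufu (ENSMUSG00000025231, chr19:46471386-46563294, plus strand) encodes the cytoplasmic inhibitor of the Gli proteins and had 1 peak, inside the gene. Peak 3128 (chr19:46496698-46497794, 1097 bp) lay 25.8 kb downstream of the start site in intron 2 of 11. No other peak midpoint was called within 826.4 kb of it. For 6.58% of protein-coding genes the nearest peak was closer.

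Gli1 (ENSMUSG00000025407, chr10:126766945-126778645, minus strand) encodes an activator that is itself a target of the pathway. It had 2 peaks in its window and none near it. Peaks 720 (chr10:126282254-126282932) and 721 (chr10:126356009-126356798) lay 496.1 and 422.2 kb downstream, both nearest to the start site of Xrcc6bp1. The stretch without a peak around the Gli1 start site was the longest among the 7 genes, 3324 kb, which 20.6% of protein-coding genes equal or exceed. Gli1 also stood in the most crowded window, with 42 protein-coding start sites, its own included, against a median of 16 over all protein-coding genes. Bases outside GENCODE vM1 exons and more than 2.5 kb from a start site made up 58.7% of its window, the lowest share of the 7. This share only approximates the space open to a peak, since the authors filtered whole peaks with UCSC knownGene.

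Gli2 (ENSMUSG00000048402, chr1:120730709-120950196, minus strand) encodes the main activator of the pathway and had 9 peaks, the most of the 7 genes. Inside it lay 4 of them. Peaks 233 (chr1:120930050-120930976, 927 bp) and 232 (chr1:120916540-120917271, 732 bp) were in intron 1 of 13, 19.7 and 33.3 kb downstream of the start site. Peaks 231 (chr1:120836663-120837506, 844 bp) and 230 (chr1:120808590-120810305, 1716 bp) were in intron 2, at 113.1 and 140.7 kb. Only peak 230 of these was wider than the median peak. With 4 peaks inside, Gli2 stood among the 0.778% of protein-coding genes with at least as many, a share that does not allow for its length of 219.5 kb.

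The other 5 peaks of Gli2 lay in no coding gene. Peak 234 (chr1:121085704-121086803, 1100 bp), 136.1 kb upstream, had the Gli2 start site nearest. Peaks 235 (chr1:121153211-121154124), 236 (chr1:121284926-121285812) and 237 (chr1:121354519-121355389), at 203.5, 335.2 and 404.8 kb upstream, were nearer to Inhbb, which encodes an inhibin and activin subunit. Peak 229 (chr1:120673129-120674025), 276.6 kb downstream of the Gli2 start site, was nearer to the start site of Tcfcp2l1, at 149.1 kb. The Gli2 start site had the shortest peak-free stretch of the 7 genes, 154.7 kb, and 95.8% of protein-coding genes had one at least as long. Inhbb shares peaks with Gli2 and had 8 in its own window.

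Gli3 (ENSMUSG00000021318, chr13:15555068-15821859, plus strand) encodes the main repressor and had 4 peaks, of which 3 were inside the gene. Peak 1490 (chr13:15634677-15636820, 2144 bp) lay 79.9 kb downstream of the start site in intron 2 of 14 and was the widest of the 23, wider than 97.0% of all peaks. Peak 1491 (chr13:15641615-15642719, 1105 bp) followed 6.42 kb later on the other side of an exon, in intron 3. Peak 1492 (chr13:15716296-15717198, 903 bp) was in intron 4 at 160.9 kb. Peak 1493 (chr13:15850776-15851857, 1082 bp) lay 295.5 kb downstream of the start site, beyond the end of the gene. The nearest coding start site was that of the predicted gene Gm17394, 247.2 kb from the peak. The window of Gli3 held no protein-coding start site but its own, the fewest of the 7. Outside exons and the surroundings of start sites lay 98.0% of the window, the highest share.

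**Figure D1:**
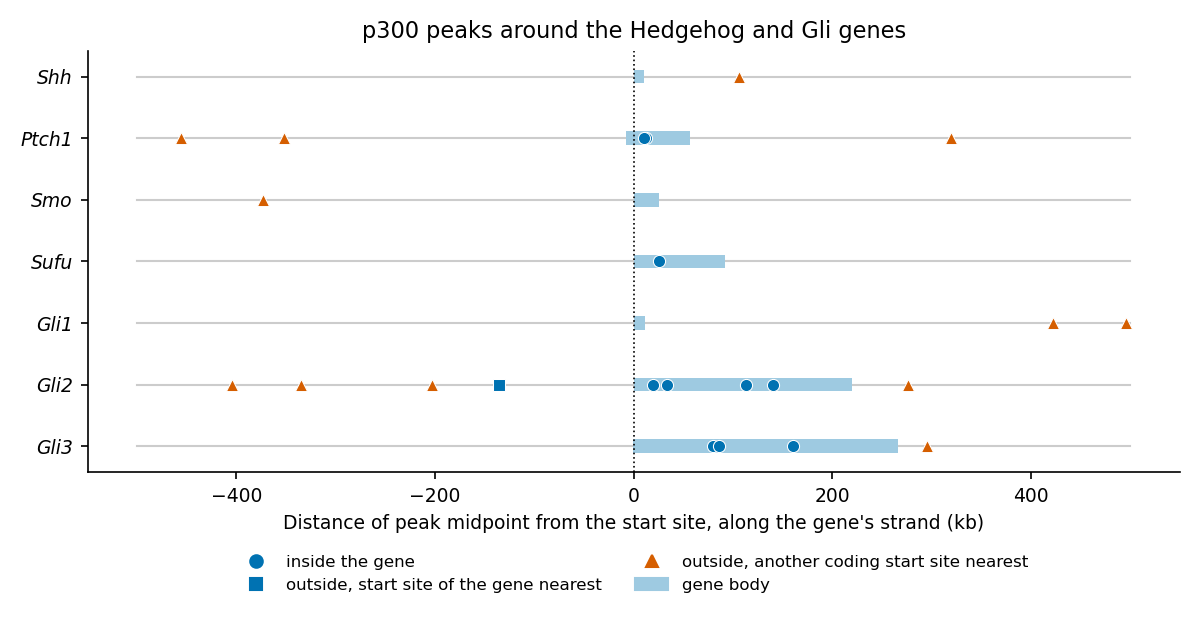
Position of each of the 23 p300 peaks along its gene's strand in kb from the transcription start site, 1 line per gene, with the gene body as a light bar, negative values upstream. Circles mark peaks inside the gene, the square the Gli2 peak 136.1 kb upstream, and triangles peaks nearer to another coding start site. The Gli2 line carries 9 peaks, and the Gli1, Smo and Shh lines carry triangles only. The circles of Ptch1 at 10.7 and 12.8 kb nearly coincide at this scale.

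**Figure D2:**
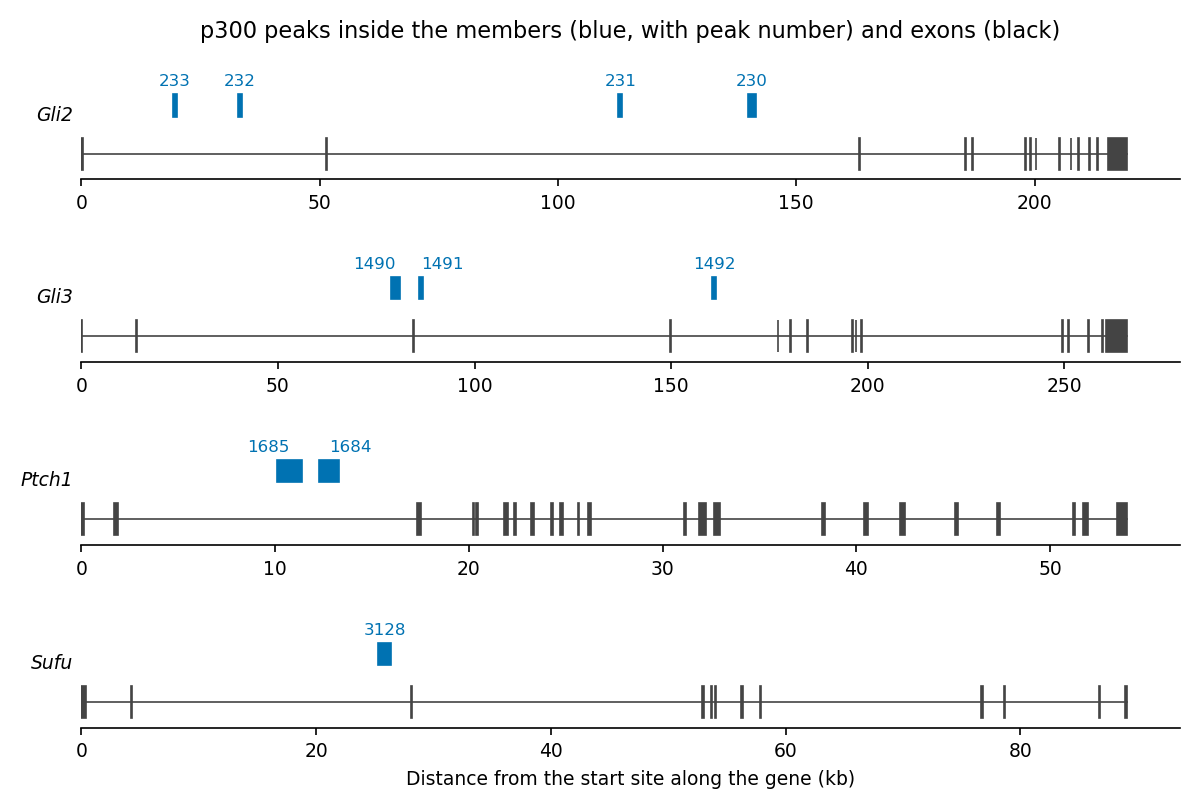
The 10 intronic peaks of Gli2, Gli3, Ptch1 and Sufu drawn to scale in kb from the start site along each gene, with exons in black and peaks in blue under their number. The scale differs between genes. Peaks 1490 and 1491 stand on either side of a Gli3 exon, and 1684 and 1685 lie together in Ptch1 intron 2.

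By position, the 23 peaks fell into 10 inside 1 of the 7 genes, 3 inside another coding gene and 10 in no coding gene. None of the 10 intronic peaks overlapped an exon of GENCODE vM1. The authors had removed peaks at exons of UCSC knownGene, so this outcome was largely set beforehand. The 7 genes were the nearest coding start site for 11 of the 23 peaks, 5 for Gli2, 3 for Gli3, 2 for Ptch1 and 1 for Sufu, and for none of those near Shh, Smo and Gli1. Downstream of the start sites lay 16 peaks and upstream 7. A peak inside the gene was found for 4 of the 7 genes, against 1469 of 22367 protein-coding genes, or 6.57%. This comparison does not allow for gene length, and the 4 genes were 64.2 to 266.8 kb long while Shh, Gli1 and Smo were 10.3 to 25.7 kb. Per 100 kb of gene, Ptch1 had 3.11 peaks, Gli2 1.82, Gli3 1.12 and Sufu 1.09. These differences rest on 1 to 4 peaks a gene and were not tested.

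The number of peaks in each window was compared with the number expected if the 6629 midpoints lay evenly over the 2.56 Gb of assembled bases, 2.59 for each of the 7 genes (exact binomial test, one-sided, with Benjamini-Hochberg adjustment over 22367 protein-coding genes). Gli2 passed, with 9 peaks, 3.47 times the expected number (95% Clopper-Pearson interval 1.59 to 6.59, p = 0.00145, adjusted p = 0.0354). It was 1 of 7 called, where 4.09% of all protein-coding genes were called. A window of this size needed 9 peaks for a call, since 8 gave an adjusted p of 0.0869 in the same exact test. So many peaks or more were counted for 4.11% of protein-coding genes.

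The call for Gli2 depended on the window and on which peaks were counted. In the same exact test it had 4.63 times the expected number within 250 kb (adjusted p = 0.0697), 1.93 times within 1000 kb (adjusted p = 0.269) and 1.54 times when only peaks of the median width or more were counted (adjusted p = 1), as 2 of its 9 peaks were that wide.

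The other 6 genes did not pass. Ptch1 had 1.93 times the expected number (interval 0.627 to 4.50, adjusted p = 0.684 in the exact test) and Gli3 1.54 times (0.421 to 3.95). Gli1 had 0.772 times (0.0935 to 2.79). Shh, Smo and Sufu each had 0.386 times the expected number (0.00977 to 2.15). All intervals except that of Gli2 include 1 and they overlap each other, so these counts do not order the other 6 genes. The median of the 7 genes was 2 peaks a window and that of all protein-coding genes 1, with an upper quartile of 3 and a highest value of 51.

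**Figure D3:**
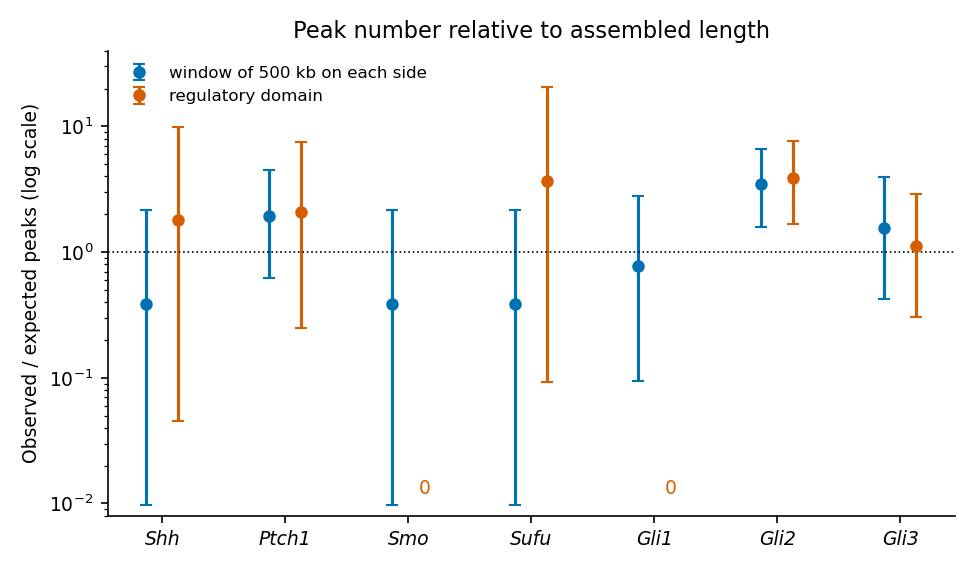
Observed over expected number of peaks on a log scale for each gene, with exact 95% intervals, in the window (blue) and in the regulatory domain (orange). A 0 marks the domains of Smo and Gli1, which hold no peak. The intervals of Gli2 lie above the dotted line at 1 on both measures, and each other interval crosses it.

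**Figure D4:**
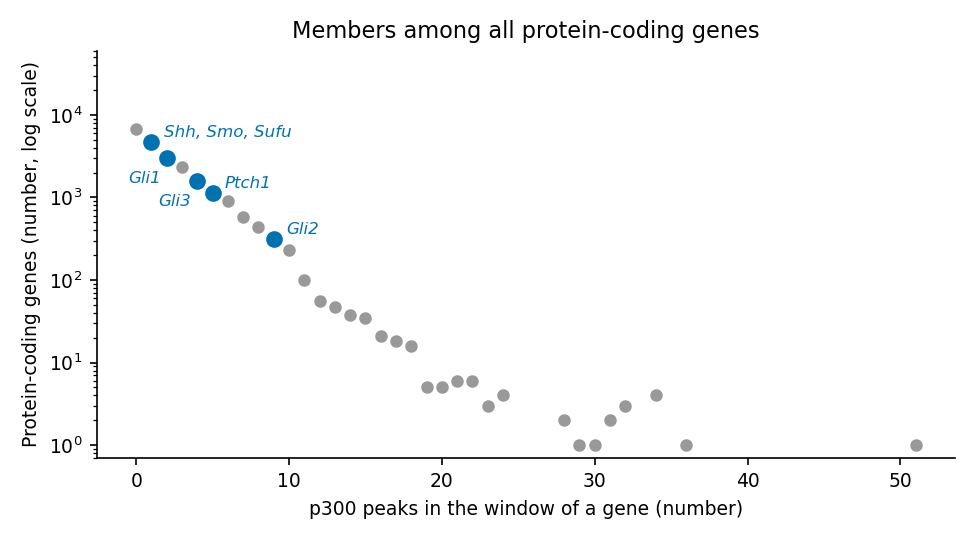
Number of protein-coding genes (log scale) for each number of peaks in the window, with the 7 genes in blue at their own number of peaks. Gli2 at 9 peaks stands to the right of the other 6, which had 1 to 5, and the genes with most peaks reach 51.

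A regulatory domain gives each peak to fewer genes. It runs from 5 kb upstream to 1 kb downstream of the start site and is extended by up to 1000 kb on each side until the domain core of the next protein-coding gene, the default rule of GREAT without its curated domains. By this rule 0 of 7 genes passed, where 1.14% of all protein-coding genes did. At an unadjusted p under 0.05 stood 1 of the 7, Gli2, and 968 of all 22367. Gli2 had 8 peaks in 792.3 kb, 3.90 times the expected 2.05 (interval 1.68 to 7.67, exact p = 0.00129, adjusted p = 0.0911). The peak left out of its domain was 237, beyond the Inhbb start site. Domains of neighbouring genes overlap, so a peak between their start sites counts for both. All 8 peaks in the Gli2 domain were also counted for Tcfcp2l1 (5 peaks in its domain) or Inhbb (4).

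The domains differed far more in length than the windows. Gli3, with few coding genes around it, had 1374 kb with 4 peaks, 1.12 times the expected number. Ptch1 had 2 peaks in 373.6 kb, 2.07 times the expected number. Shh had 1 in 215.3 kb (1.79 times) and Sufu 1 in 104.7 kb (3.69 times, interval 0.0933 to 20.5). Smo and Gli1 had 0 peaks in 68.2 and 27.7 kb, where 0.177 and 0.0717 peaks were expected, too few for a lack of peaks to be detectable.

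Distance to the nearest peak set the 4 genes with intronic peaks before the other 3. It was 10.7 kb for Ptch1, 19.7 kb for Gli2, 25.8 kb for Sufu and 79.9 kb for Gli3, then 106.0 kb for Shh, 372.9 kb for Smo and 422.2 kb for Gli1. The median was 79.9 kb, and over all protein-coding genes 262.1 kb with quartiles of 103.9 and 609.1 kb. The 4 genes with a peak inside are thus all below the lower quartile, and Smo and Gli1 are between the median and the upper quartile. This order follows in part from the grouping, since a peak inside a gene lies no farther from the start site than the gene is long. With a single list these distances have no error.

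By shape the 23 peaks lay within the range of the others. Their median width was 903 bp (range 496 to 2144) and that of all 6629 peaks 1017 bp. The 10 intronic peaks had a median of 1059 bp. Peaks of at least the median width numbered 2 of 9 for Gli2, 3 of 4 for Gli3, 2 of 5 for Ptch1 and the single peaks of Smo and Sufu. The width of a called peak is not a level of p300. The GC content had a median of 48.0% for the 23 peaks and 45.2% for all, and was highest in peak 233 of Gli2, 57.7%, above 97.3% of all peaks. The nearest other midpoint was a median of 69.6 kb away for the 23 peaks, 13.6 kb for the 10 intronic ones and 49.9 kb for all. These values have no test, since neighbouring peaks of 1 library are not replicates.

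Sequence matches were counted in the 23 peaks beside all 6629, with no test. The GLI consensus GACCACCCA is the sequence through which Gli proteins bind DNA. No peak of the 7 genes held it exactly (0 of 23, interval up to 14.8%), and 0.890% of all peaks did. With at most 1 mismatch it was in 5 of 23 (21.7%, exact 95% interval 7.46 to 43.7%) and in 18.5% of all peaks. In the middle 500 bases the shares were 17.4% and 8.78%, and in the middle 200 bases, a length added after seeing the data, 4.35% and 3.59%. The 5 peaks were 233 of Gli2, 1493 of Gli3, 1684 and 1687 of Ptch1, and 3128 of Sufu, the only one with 2 matches. The matches in intronic peaks of Gli2 and Ptch1, and the Sufu match farther from the midpoint, are shown with 30 bases on each side and the match in capitals, on the strand that reads as the consensus.
Gli2 peak 233, chr1:120930268-120930336, plus strand: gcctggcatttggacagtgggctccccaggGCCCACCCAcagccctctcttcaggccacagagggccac
Ptch1 peak 1684, chr13:63653837-63653905, plus strand: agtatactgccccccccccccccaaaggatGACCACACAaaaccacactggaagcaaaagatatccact
Sufu peak 3128, chr19:46497177-46497245, minus strand: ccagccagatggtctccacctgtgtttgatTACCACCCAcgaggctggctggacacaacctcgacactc

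Each of these matches has 1 mismatch to the consensus. Counted along the plus strand from the midpoint of the peak, they start at -215 bases in peak 233, at -176 bases in peak 1684 and at -39 bases in the Sufu peak. Ptch1 is a known target of the Gli proteins, and its nearer intronic peak, 1685, held no such match.

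Letters that neural factors bind had shares over all peaks that lay inside the intervals of the 23 peaks near the 7 genes. CAGATG was in 14 of 23 peaks (60.9%, interval 38.5 to 80.3%) and in 74.8% of all. CAGCTG was in 11 of 23 (47.8%, 26.8 to 69.4%) and in 56.3% of all, and in the middle 500 bases in 26.1% (10.2 to 48.4%) and 39.7%. In the middle 200 bases CAGATG was in 47.8% of the 23 peaks and 36.4% of all, and CAGCTG in 13.0% and 23.5%. TAATTA was in 10 of 23 (43.5%) and in 46.7% of all. The POU octamer ATGCAAAT was in 3 of 23 (13.0%) and in 12.9% of all, and the Rfx element GTTGCCA also in 3 of 23, against 16.5% of all. The Nfi dimer of TTGGC and GCCAA with 5 bases between them was in 0 of 23 and in 0.362% of all. The study matched weight matrices instead of exact letters and reported an Nfi motif in more of these peaks. The shares given here are therefore not comparable with its own. Of the 10 intronic peaks, 8 held CAGATG, 6 CAGCTG and 4 TAATTA. In 1 peak of Gli1, 720, the CAGCTG and GTTGCCA matches overlap, and for each motif both strands were searched.

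**Figure D5:**
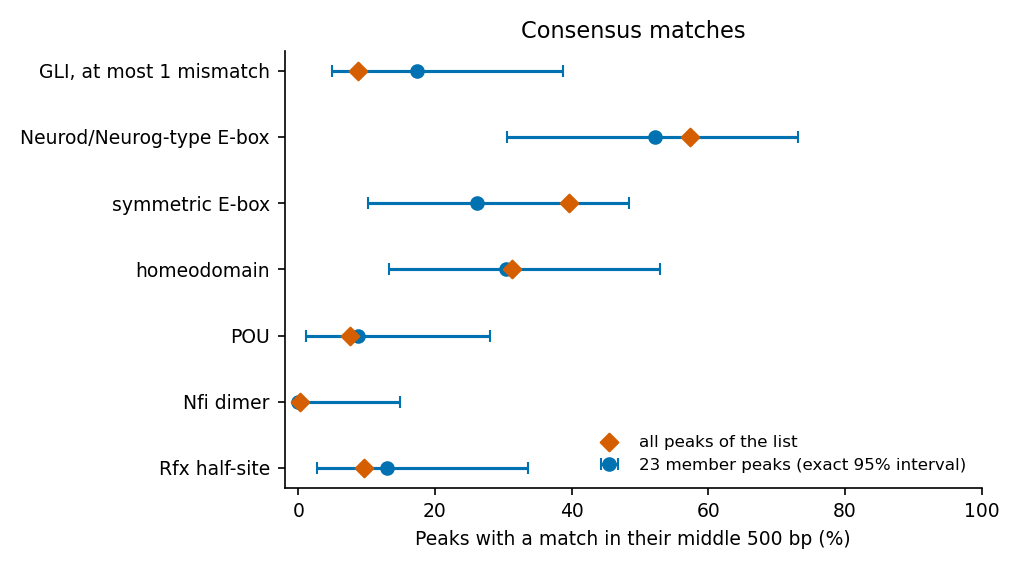
Share of peaks with a match in their middle 500 bases, in percent, for the 23 peaks of the 7 genes (blue, exact 95% intervals) and for all 6629 peaks (orange). The Neurod/Neurog-type E-box is CAGATG and the symmetric E-box CAGCTG. Each orange point lies inside the blue interval of its motif.

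Other genes of the pathway, with the related zinc finger genes Glis and Zic, were taken from 6 lists by role. These gave 57 gene identifiers for 56 genes found, since Glis3 has 2 identifiers. The window test called 7 of the 57 (12.3%, beside 4.09% of all protein-coding genes), 1 of them Glis3. The domain test called 4 (beside 1.14%), namely Gas1, Boc and both identifiers of Glis3, so this 1 related gene counts as 2 there. The median was 3 peaks a window against 1. Of 7 ligand and release genes 0 were called by either rule. Of 12 kinase and protein turnover genes 0 were called, although Cul1, a ubiquitin ligase scaffold, had 8 peaks.

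Gas1, Boc and Cdon, co-receptors that present the ligand to Patched1, had the most peaks of the 7 receptor genes. Over this list the median was 2 peaks a window and the lowest 0. Gas1 had 9 peaks in its window and 6 in its domain (adjusted p = 0.0354 and 0.0480, exact tests), the nearest 126.3 kb from its start site. Boc had 8 in each, 9.54 times the number expected in its short domain (adjusted p = 0.000642 in the exact test), with 3 inside the gene and the nearest 6.76 kb from its start site, but its window was not called (adjusted p = 0.0869). Cdon, named after its values had been seen, had 6 and 5, with adjusted p = 0.383 and 0.0615 in the exact tests. Shh itself and its receptor gene Ptch1 had 1 and 5.

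Of 14 cilium genes, the window test called Kif7, which encodes a kinesin that binds Gli proteins (9 peaks, adjusted p = 0.0354 in the exact test), and Rpgrip1l and Mks1, which encode proteins of the ciliary transition zone (10 each, adjusted p = 0.0131). All 3 had 0 peaks in their domain, so the peaks counted for them belong by that rule to neighbouring genes, and Arl13b had 8 in its window and 0 in its domain. Of 8 known targets, Mycn had 13 peaks (adjusted p = 0.000364 in the exact test) and Olig2 11 (adjusted p = 0.00503), with 3 and 1 in their domains, while Ccnd2 had 7. Of 9 identifiers of Glis and Zic genes, which encode zinc finger factors related to Gli, both of Glis3 passed in the domain (adjusted p = 0.0199 and 0.0481 in the exact test), 7 peaks lay inside the longer Glis3 gene, and the shorter one was called in the window (9 peaks, adjusted p = 0.0354). These lists were chosen with results of these data known. Windows and domains of neighbouring genes share peaks, so the counts describe the genes and are not independent of each other.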

How the data were processed

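p300 ChIP-seq was done on 1 sample of dorsal cerebral wall. The authors aligned reads of 36 bp to mm9 with ELAND, kept reads that aligned once with 2 mismatches or fewer, and called peaks with MACS 1.4 (no model, shift of 100 bp), with the input as control. Peaks at exons, up to 2.5 kb from a start site of UCSC knownGene, or where reads may not map uniquely had been taken out. The deposited list gives coordinates only, with no score, read count or p-value, so depth per peak is unknown. The input library was not analysed here.

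Midpoints were placed on NCBIM37, the mm9 assembly, with the 37273 genes of GENCODE vM1, using Python 3.11.15, numpy 2.4.6, scipy 1.17.1, pandas 2.3.3 and matplotlib 3.10.9. Peak numbers in windows and domains were compared with the share of assembled bases in a one-sided binomial test (exact, adjusted by the Benjamini-Hochberg method over 22367 protein-coding genes, threshold 0.05). A p compares peaks with even placement over the genome, which ignores clustering of peaks, mappability and GC content. The peak counts, the domains and the binomial test were tested on simulated data. Motifs were searched as letters on both strands.

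The 7 genes, the lists and the rules were chosen with earlier results of these data known. Named were the 7 genes, genes that hold or start nearest to a peak of theirs, and of the pathway lists the genes called in the window test and up to 6 more with the most peaks. Disp1, a listed gene, was not found under that name and not analysed here. Alternatives changed the window, the domain rule, the peaks counted, the expected number, the start site, the genes tested and the sequence searched.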

Additional observations from a re-analysis of the deposited data

How the results depend on the processing

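Gli2 kept a number of peaks above that expected under each alternative run, but lost its call in the window test within 250 kb (4.63 times, adjusted p = 0.0697), within 1000 kb (1.93 times, adjusted p = 0.269) and with wide peaks only (1.54 times, adjusted p = 1), all in the exact test. No other of the 7 genes was called under any of them. Of values for genes that passed no test, 8 changed side of the expected number. In the window test Gli1 came to 1.17 times with the expected number from the 2.27 Gb outside exons and start-site surroundings. In the same test within 1000 kb Gli3 came to 0.965, Ptch1 to 0.965 and Smo to 1.16 times. In the domain test Gli3 came to 0.914 times with peaks under 5 kb apart joined. Shh came to 0 with domains between all annotated genes, 0.442 times without model or clone names, and 0 with wide peaks only. The other 49 window and 38 domain values kept their side and call. Of the other listed identifiers, Glis and Zic included, the window test called 7. It called 4 with joined peaks, 4 with wide peaks, 5 within 250 kb and 8 within 1000 kb. Over all protein-coding genes the window test called 914, and 466 within 250 kb, 1537 within 1000 kb, 516 with the 6109 joined peaks and 459 with the 3324 wide ones, and the domain test 255, 158 and 154. The GLI share was 0% for the exact consensus, and the share of CAGCTG in the middle 500 bases was 26.1%. No paired analysis was possible because there was 1 p300 library, and none could be left out.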
